A study of Mus musculus with 27 samples.

Results

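This report covers the mouse microRNAs numbered miR-6896 to miR-7093, a block of names that is rich in candidate mirtrons, in embryonic stem (ES) cells. Its members are the mature microRNA loci in that number range that had at least 10 read counts summed over 4 deposited columns. They came to 142 of the 402 loci in the range (35.3%) and 6.98% of the 2035 loci in the tables. The 142 loci carry 140 mature names from 107 hairpin names, because the 2 arms of miR-6967 are each listed at 2 loci. The members were chosen by these summed counts, so that a member is detected somewhere is a consequence of the choice and no result.

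The cells were mouse ES cells of the cj7 strain, wild-type or of 3 mutant genotypes, Jarid2-/-, Ezh2-/- and Eed-/-, grown with fetal calf serum and leukemia inhibitory factor and given no treatment. Eed and Ezh2 are core subunits of PRC2, the Polycomb complex that methylates histone H3 on silent chromatin, while Jarid2 binds PRC2 and guides it to chromatin. Among 27 samples of the series, the labels give 7 of small RNA (Jarid2-/- 1, and the other groups 2 each), and do not say how many ES cell clones they came from. RNA of 18 to 40 nt was cut from a gel, made into small RNA libraries and sequenced on a SOLiD instrument. The counts were deposited as 1 column per genotype, and nothing in the sources tells whether both samples of a genotype were pooled or 1 was used. There are therefore no replicate values: no difference below has a replicate check, no p-value is given, and every interval is an exact 95% interval that covers counting error only. PCR copies are not independent molecules, so the true error may be larger than these intervals.

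A microRNA is a regulatory RNA of about the size of a short oligonucleotide that guides Argonaute proteins to messenger RNAs, mainly through the bases near its 5′ end called the seed. Most microRNA precursors are hairpins cut out of a longer transcript by the enzyme Drosha and then trimmed by Dicer. A mirtron takes another route, in which a short intron is spliced out, opened and folded into the hairpin, so that Drosha is bypassed and only Dicer is needed. Because the ends of a mirtron are the ends of an intron, its 5p arm can start at the splice donor, which begins with GU, and its 3p arm can end at the splice acceptor, which ends with AG behind a stretch of pyrimidines.

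The mature sequences of the most abundant members and of the members with the largest differences show these features. They are given 5′ to 3′ as the deposited tables hold them, with bases 2 to 8, the seed, in capitals. The first 10 are the most abundant names.
miR-6967-3p: uCAUCUUUaucucuccccag
miR-6944-3p: uAACUCUUcccuugugcccucag
miR-7075-3p: cAACCAUGucuucuuucccag
miR-6958-3p: uCAGCUGCcucuugccaucacag
miR-6992-5p: uGCCUGUGaugguuuggcugagu
miR-6943-3p: cUGCUUCCauaccccuacccag
miR-7054-3p: uCCAACUUggccccuuccag
miR-7070-3p: cAGGCUCUccuucccuccag
miR-6967-5p: cAGGGAGGgauaaagaccagu
miR-7024-3p: cCAGCAGUcccugcucccuacag
The next 8 had the highest or lowest ratios against wild-type among members whose higher count of the pair, mutant or wild-type, was 30 or more.
miR-7069-3p: cCUGCCCUgccaaccccuaca
miR-7079-3p: uGACUUCUguucucuuuccag
miR-6931-3p: cCCAACCUcuucauaccccag
miR-7036-3p: cCGUCCUCauccgcuccucccag
miR-7016-3p: aCCUGCCUccugcucuccccag
miR-6927-5p: gUGAGGGGauccagcccaggcu
miR-7033-5p: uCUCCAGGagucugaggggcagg
miR-6994-5p: aCAAAGGUgggugaagccgguga
The last lines show the one seed that 3 member names share, CACCCUG.
miR-7018-3p: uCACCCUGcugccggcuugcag
miR-7023-3p: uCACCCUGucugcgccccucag
miR-7068-3p: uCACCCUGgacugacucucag
Every 3p sequence shown except miR-7069-3p ends with ag, and miR-6927-5p is the one 5p sequence shown that starts with gu.

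Whole hairpins show both ends of the precursor. They are RefSeq sequences (build GRCm38.p6), 5′ to 3′, with the annotated mature arms in capitals, for the 2 most abundant hairpins and for miR-6958 and miR-6992, whose levels differed between genotypes.
miR-6967: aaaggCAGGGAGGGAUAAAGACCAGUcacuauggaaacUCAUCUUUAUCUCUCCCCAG
miR-6944: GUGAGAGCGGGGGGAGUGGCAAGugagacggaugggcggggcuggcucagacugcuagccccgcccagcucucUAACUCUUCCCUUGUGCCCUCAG
miR-6958: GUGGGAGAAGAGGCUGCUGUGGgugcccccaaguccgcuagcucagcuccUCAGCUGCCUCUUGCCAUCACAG
miR-6992: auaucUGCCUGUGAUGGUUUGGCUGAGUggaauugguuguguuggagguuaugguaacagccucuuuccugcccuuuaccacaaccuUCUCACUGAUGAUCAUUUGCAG
All 4 end with the AG of the 3p arm, and the hairpins of miR-6944 and miR-6958 also start with GU as the first bases of their 5p arm. The hairpins of miR-6967 and miR-6992 have 5 bases before the 5p arm.

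Sequence marks of mirtrons were counted in the block, and the count threshold did not use them. These sequences are annotated entries, and how the entries were defined was not examined. The comparison therefore describes the block and does not test whether its entries are mirtrons. Among 3p members, 75 of 97 (77.3%, 67.7 to 85.2%) ended with AG, as did 84 of the 104 3p loci of the range that were not members (80.8%, 71.9 to 87.8%). In the rest of the tables, 61 of 652 3p loci did (9.36%, 7.23 to 11.9%). At the other end, 7 of 45 5p members (15.6%, 6.49 to 29.5%) started with GU, against 28 of 654 other 5p loci (4.28%, 2.86 to 6.13%), and these 2 intervals did not overlap. The 5p loci of the range that were not members did so in 11 of 156 (7.05%, 3.57 to 12.3%), an interval that overlaps both. GGG stood in 29 of 45 5p members (64.4%) and in 164 of 654 other 5p loci (25.1%). The 5p loci of the range that were not members held it in 123 of 156 (78.8%), so it was not particular to members. These are literal matches on the mature strand, counted as a description and not as splice sites.

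Base composition separated the arms. The median share of C and U was 71.4% in 3p members (quartiles 66.7 and 77.3%) and 33.3% in 5p members (28.6 and 43.5%), while other loci had medians of 52.4% and 50.0%. The 260 loci of the range that were not members had medians of 71.4% and 30.6%, as the plot of pyrimidine content shows. The median length was 21 nt for 3p members and 22 nt for 5p members.

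**Figure D1:**
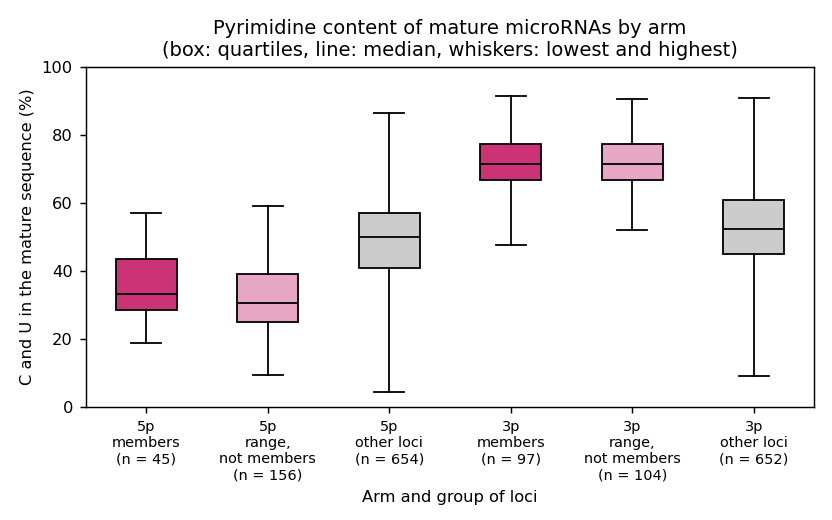
Percentage of C and U in each mature sequence (y axis) for 5p and 3p arms, split into members, other loci of the number range, and all other loci; boxes are quartiles, lines medians and whiskers the lowest and highest values. The 3p members sit around 71.4% and the 5p members around 33.3%, with the other loci near 50% in both arms.

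RefSeq hairpins could be matched for 180 of the range's microRNA genes. Of these, 167 (92.8%, 88.0 to 96.1%) ended with AG, against 71 of 825 other mouse hairpins (8.61%, 6.78 to 10.7%). Both a GU start and an AG end were found in 21 of 180 (11.7%) and in 9 of 825 (1.09%). The 3p mature sequence ran to the last base of the hairpin in 129 of 180 (71.7%) and in 119 of 825 (14.4%). The range's hairpins were also shorter, with a median of 66 nt (52 to 137) against 82 nt.

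Every one of the range's 201 microRNA genes in the RefSeq gene table lay within a protein-coding gene. For 163 of them (81.1%) the host is listed on the same strand, and for 38 its strand is not given. Among 825 other microRNA genes, 354 (42.9%, 39.5 to 46.4%) lay in no protein-coding gene. The table gives whole genes without exons, so whether each hairpin fills an intron was not read from it. The 14 member loci that RefSeq did not match by name, such as miR-7036-3p and miR-6913-3p, were kept and were described from the deposited sequences. In the block an AG end and a 3p arm rich in C and U were common. A GU start was found in only 27 of 180 hairpins (15.0%), against 50 of 825 others (6.06%).

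The block was thinly detected. Of its 402 loci, 68 (16.9%) had no count in any column and 192 had 1 to 9 counts in all. Loci with no count in any column were 14.3% of the other 1633 loci, a share close to that of the block, but 1102 of those loci (67.5%) reached 10 counts against 35.3% in the block. The 142 members had a median of 26 counts over the 4 columns, against 1000 for the other loci at or above 10. Just inside the threshold, 11 members had exactly 10 counts, among them miR-6920-3p. Just outside it, miR-6946-3p, miR-6996-5p, miR-7073-3p and miR-7092-5p had 9.

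Levels are given as counts-per-million (CPM), the total being all microRNA counts of that column. Column totals ran from 8485806 in Jarid2-/- to 42293019 in Eed-/-, and 3 counts, the floor set for a column with none, equalled 0.126 CPM in wild-type and 0.0709 in Eed-/-, with 0.0935 in Ezh2-/- and 0.354 in Jarid2-/-. The mean CPM of members over the 4 columns ran from 0.0610 to 18.6, with a median of 0.256, and 17 members reached 1 CPM. Markers of ES cells in the same columns, the miR-290 and miR-302 clusters, summed to between 394658 and 464646 CPM over 28 loci, of which miR-292b-3p was at 0 in every column. The sum does not show that each arm was stable. In wild-type, Eed-/-, Ezh2-/- and Jarid2-/-, miR-294-3p had 152826, 115428, 164809 and 151279 CPM, but miR-294-5p had 96.5, 6968, 17.5 and 3804. Markers of liver, muscle and blood (miR-122, miR-1a, miR-133a and miR-451a, 9 loci) summed to between 32.2 and 56.8 CPM, with miR-451a the most abundant locus in each column (19.7 to 43.9 CPM). Only miR-122-3p was at 0 in wild-type, Eed-/- and Ezh2-/-, and only miR-122-5p in Jarid2-/-. In such bulk samples, fewer cells of a type and less RNA per cell cannot be told apart.

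Wild-type had at least 1 count at 138 of the 142 members, Eed-/- at 141, Ezh2-/- at 136 and Jarid2-/- at 110. The Jarid2-/- column was also the shallowest, and with the other columns thinned by calculation to its total, the expected numbers were 119.9, 116.5, 110.4 and 110. Over the whole range the columns had 235, 286, 217 and 151 loci with a count, and 168, 167, 142 and 151 at the common depth. All 4 columns had counts for 105 members, 31 had counts in 3 columns, 6 in 2 and none in a single column.

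Together, the members had 3086 counts in wild-type, 129.7 CPM (125 to 134). They had 4196 counts in Eed-/-, 99.2 CPM (96.2 to 102), and 3349 in Ezh2-/-, 104.4 CPM (101 to 108). In Jarid2-/- they had 1019 counts, 120.1 CPM (113 to 128). On this scale the summed level was 1.31-fold lower in Eed-/- than in wild-type (1.25 to 1.37). It was 1.24-fold lower in Ezh2-/- (1.18 to 1.30) and 1.08-fold lower in Jarid2-/- (1.01 to 1.16). Each of these directions turned with another scaling: by the authors' RPM denominators the ratios of mutant to wild-type were 1.25, 1.10 and 1.31, and by TMM factors that of Ezh2-/- was 1.33. The summed level therefore cannot be ordered between genotypes from these columns.

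Much of the sum came from 1 hairpin. miR-6967 is annotated at 2 loci of chromosome 17 with identical RefSeq hairpins, 1 inside Kifc1, a kinesin motor that moves toward microtubule minus ends, and 1 inside its relative Kifc5b. Its 4 member loci made up 43.9% of member counts in wild-type and 32.7% in Eed-/-, with 42.5% in Ezh2-/- and 27.7% in Jarid2-/-. The 2 loci of each arm had nearly equal counts, 594 and 594 for the 3p arm in wild-type, as would follow from counting a read at both places or from sharing it between them, so the sums above may hold these reads double. The remaining 138 members summed to 72.7 CPM in wild-type and 66.8 in Eed-/-, with 60.0 in Ezh2-/- and 86.9 in Jarid2-/-, which places Jarid2-/- above wild-type (1.19-fold).

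miR-6967-3p (mm9 chr17:34023621-34023640 for the Kifc1 copy) was the most abundant member. Its level was 24.96 CPM in wild-type and 14.9 in Eed-/-, with 20.1 in Ezh2-/- and 14.3 in Jarid2-/-. Wild-type was the highest column on the CPM scale, and the folds of 1.67 (Eed-/-), 1.24 (Ezh2-/-) and 1.75 (Jarid2-/-) below it were all under the 2-fold size used for calls. Under the other scalings Ezh2-/- stood above wild-type, at log2 ratios of 0.13 to 0.41. Its partner miR-6967-5p had 85 counts in wild-type at the Kifc5b copy, 56 in Eed-/-, 67 in Ezh2-/- and 20 in Jarid2-/-. That made 3.57, 1.32, 2.09 and 2.36 CPM, and the level in Eed-/- was 2.70-fold below wild-type (1.90 to 3.85), or 2.63-fold at the Kifc1 copy. Both calls were lost under the authors' RPM denominators (log2 -0.69 and -0.65).

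**Figure D2:**
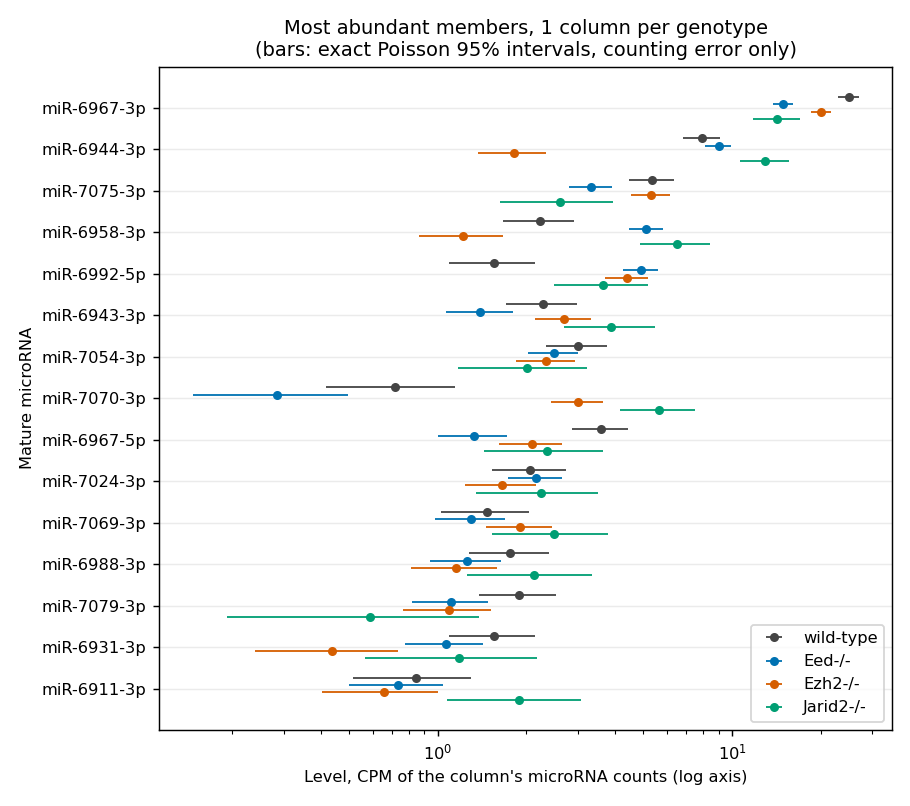
Level of each of the 15 names with a mean of at least 1 CPM, in CPM on a log axis; points are the 4 genotypes, 1 column each, bars are exact Poisson 95% intervals, and miR-6967 is drawn once per arm. miR-6992-5p is lowest in wild-type (1.56 CPM), and miR-6944-3p is lowest in Ezh2-/- (1.81 CPM).

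miR-6944-3p (mm9 chr13:55579042-55579064, minus strand) comes from Dbn1, which encodes the actin-binding protein drebrin. It had 188 counts in wild-type (7.90 CPM) and 381 in Eed-/- (9.01 CPM), with 58 in Ezh2-/- (1.81 CPM) and 110 in Jarid2-/- (13.0 CPM). The Ezh2-/- column stood apart below the other 3. It was 4.37-fold below wild-type (3.24 to 5.97), while Eed-/- was 1.14-fold (0.955 to 1.37) and Jarid2-/- 1.64-fold (1.28 to 2.09) of wild-type. The call in Ezh2-/- held under each scaling tried, and by the authors' RPM denominators Jarid2-/- was also called higher (log2 1.20).

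miR-6992-5p (mm9 chr19:8817466-8817488, plus strand) comes from Stx5a, a Golgi membrane fusion protein. It was the one member called at least 2-fold higher in all 3 mutants, of 52 with a ratio in each (1.92%), against 15 of all 944 such loci (1.59%). It had 37 counts in wild-type (1.56 CPM) and 207 in Eed-/- (4.89 CPM), with 141 in Ezh2-/- (4.40 CPM) and 31 in Jarid2-/- (3.65 CPM). The ratio in Eed-/- was 3.15-fold (2.21 to 4.60), that in Ezh2-/- 2.83-fold (1.96 to 4.18) and that in Jarid2-/- 2.35-fold (1.41 to 3.89). The calls held under each scaling tried. These ratios share the wild-type column, so they are not independent of each other. Its 3p arm, which ends with AG, was no member.

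miR-6958-3p (mm9 chr15:89015895-89015917, minus strand) lies in Dennd6b, a DENN domain gene. It had 53 counts in wild-type (2.23 CPM) and 216 in Eed-/- (5.11 CPM), with 39 in Ezh2-/- (1.22 CPM) and 55 in Jarid2-/- (6.48 CPM). Eed-/- was 2.29-fold (1.69 to 3.16) and Jarid2-/- 2.91-fold (1.96 to 4.33) above wild-type, and Ezh2-/- was 1.83-fold below it (1.19 to 2.85). In Eed-/- the ratio was just under 2-fold by median-ratio scaling (log2 0.94). In Ezh2-/- the decrease was no call on the CPM scale, and it was smaller under each other scaling.

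miR-7070-3p (mm9 chr8:87586051-87586070, plus strand), in the F-box gene Fbxw9, was the one member called in opposite directions, of 88 with any ratio (1.14%), against 88 of all 1116 such loci (7.89%). It had 17 counts in wild-type (0.714 CPM) and 12 in Eed-/- (0.284 CPM), with 96 in Ezh2-/- (2.99 CPM) and 48 in Jarid2-/- (5.66 CPM). Ezh2-/- was 4.19-fold (2.48 to 7.49) and Jarid2-/- 7.92-fold (4.47 to 14.7) above wild-type, and Eed-/- was 2.52-fold below it (1.13 to 5.78). The last of these lost its call under the authors' RPM denominators (log2 -0.50). Its 5p arm had 6, 5, 5 and 1 counts in the same order, too few for a ratio.

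miR-7075-3p (mm9 chr8:109619925-109619945, minus strand) comes from Terf2, a telomere-binding protein gene. Its levels were 5.34 CPM in wild-type and 3.31 in Eed-/-, with 5.30 in Ezh2-/- and 2.59 in Jarid2-/-. Jarid2-/- was 2.06-fold below wild-type (1.30 to 3.40), and this call was lost under the authors' RPM denominators (log2 -0.53).

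The remaining 3 of the 10 most abundant names, miR-6943-3p, miR-7054-3p and miR-7024-3p, were called in no mutant on the CPM scale, though miR-6943-3p in Jarid2-/- was by the authors' RPM denominators (log2 1.23). miR-6943-3p, in the receptor kinase gene Grk6, had 2.27 CPM in wild-type and 1.40 in Eed-/-, with 2.68 in Ezh2-/- and 3.89 in Jarid2-/-. miR-7054-3p, in Scaf1, had 2.98, 2.48, 2.34 and 2.00 CPM in that order, and miR-7024-3p, in the NELF subunit gene Nelfa, had 2.06, 2.15, 1.65 and 2.24 CPM. For miR-7054-3p and miR-7024-3p every fold interval against wild-type held 1, which does not show that the levels are equal.

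Ratios against wild-type were formed as log2 of (CPM + 0.1) in members whose higher count of the pair was 10 or more. A member was called at 2-fold or more. The Eed-/- and Ezh2-/- columns were deeper than wild-type, so 10 counts stand for a lower CPM in them. Near that minimum a higher call is easier to reach there than a lower one, which limits their calls and medians. The pseudocount of 0.1 CPM pulls the ratios of the lowest members toward 0. With 1 CPM in its place, 1 member was called higher and 0 lower in Eed-/-, 2 higher and 1 lower in Ezh2-/-, and 2 higher and 0 lower in Jarid2-/-. Over all loci the same pseudocount gave 17.5% higher and 15.0% lower in Eed-/-, 4.9% and 24.5% in Ezh2-/-, and 16.3% and 22.8% in Jarid2-/-.

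In Eed-/-, 78 members had a ratio, and 64 did not. Of the 78, 8 were called higher (10.3%) and 13 lower (16.7%), while over all 1096 loci with a ratio the shares were 25.6% higher and 20.3% lower. With the added demand that the fold interval exclude 1, 6 were higher and 12 lower, against 24.4% and 20.3% of all loci. The median log2 ratio was -0.23 for members and 0.13 for all loci. By the authors' RPM denominators 17 members were higher (21.8%) and 3 lower (3.85%), against 43.7% and 12.1% of all loci. Median-ratio size factors gave 5 and 16 members (6.41% and 20.5%), against 19.7% and 24.0% of all loci. The highest ratios were those of miR-6992-5p and miR-6958-3p, among members whose higher count of the pair was 30 or more. The next ones were not calls on the CPM scale. miR-6927-5p, in Mllt6, was 1.50-fold (0.811 to 2.92), and miR-7033-5p, in the nuclear pore gene Pom121, 1.45-fold (0.726 to 3.11). miR-6994-5p, in the RNA decay gene Patl1, was 1.22-fold (0.738 to 2.07). By the authors' RPM denominators miR-6927-5p (log2 1.14) and miR-7033-5p (log2 1.07) were called higher. At the low end stood both arms of miR-6967 and miR-7079-3p, in the ribosomal protein gene Rpl13, which was 1.70-fold below wild-type (1.11 to 2.62). The log2 ratio of miR-7079-3p was -0.72 on the CPM scale, -0.83 by TMM factors and -0.92 by median-ratio size factors. By the authors' RPM denominators it was only -0.051.

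In Ezh2-/-, 66 members had a ratio, and 76 did not. Of the 66, 8 were called higher (12.1%) and 14 lower (21.2%), against 8.7% and 34.5% of all 1000 loci. With the interval demanded, 6 were higher and 11 lower, against 8.4% and 33.8%. The median log2 ratio was -0.31 for members and -0.59 for all loci, and both moved with the scaling. By TMM factors 19 members were higher (28.8%) and 4 lower (6.06%), against 21.8% and 21.1% of all loci. Median-ratio size factors gave 15 and 6 members (22.7% and 9.09%), against 17.5% and 24.3%. The authors' RPM denominators gave 10 and 6 (15.2% and 9.09%), against 14.7% and 25.2%. The members' median lay above that of all loci by between 0.26 and 0.28 under each of these scalings. A scaling shifts every ratio of a mutant by nearly the same amount, so this gap could hardly change and is no check.

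Beside miR-7070-3p and miR-6992-5p, 2 members with 30 or more as the higher count of the pair were called higher in Ezh2-/-. miR-7036-3p, in Srrt, whose protein ARS2 takes part in nuclear RNA processing, had 8, 20, 36 and 12 counts in wild-type, Eed-/-, Ezh2-/- and Jarid2-/-. Its ratio was 3.34-fold in Ezh2-/- (1.53 to 8.31) and 4.21-fold in Jarid2-/- (1.58 to 11.9). miR-7016-3p, in Tmem39b, had 11, 10, 36 and 2 counts in that order, and its ratio was 2.43-fold in Ezh2-/- (1.21 to 5.29). The fifth highest, miR-7069-3p in the tRNA synthetase gene Farsa, was 1.29-fold (0.840 to 2.02).

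At the low end in Ezh2-/-, miR-6931-3p, in Dcakd, followed miR-6944-3p. It had 37 counts in wild-type and 45 in Eed-/-, with 14 in Ezh2-/- and 10 in Jarid2-/-, and Ezh2-/- was 3.56-fold below wild-type (1.88 to 7.13), or just under the 2-fold size by TMM factors (log2 -0.998). miR-6945-3p, in Pdlim7, had 11 counts in wild-type and none in Ezh2-/-. With 3 counts put in the Ezh2-/- column as its floor, it was 4.94-fold lower. That figure leaves out the counting error of the 11 counts and is no lower bound.

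In Jarid2-/-, 52 members had a ratio, and 90 did not. Of the 52, 6 were called higher (11.5%) and 12 lower (23.1%), against 18.6% and 30.7% of all 950 loci. With the interval demanded, 5 were higher and 4 lower, against 18.3% and 27.7%. The median log2 ratio was -0.36 for members and -0.20 for all loci. The members' median was not below that of all loci with a pseudocount of 1 CPM, nor with a minimum of 1 or of 30 counts, nor with arms and copies summed per hairpin. By the authors' RPM denominators 12 members were higher (23.1%) and 6 lower (11.5%), against 31.1% and 24.3% of all loci. This column was the shallowest, so the minimum of 10 counts stands for a higher CPM in it than in wild-type. A member near that minimum passed mostly through its wild-type count, where a lower call is easier to reach than a higher one. This limits both the calls and the median. Of the 12 members called lower, 8 had intervals that held 1. Of those whose higher count of the pair was 30 or more, miR-7079-3p was the lowest, with 45 counts in wild-type and 5 in Jarid2-/-, 3.21-fold lower (1.28 to 10.4). At the high end, below miR-7070-3p, miR-6958-3p and miR-6992-5p, miR-6943-3p was 1.71-fold (1.08 to 2.69) and miR-7069-3p 1.68-fold (0.931 to 2.97) of wild-type, and neither was a call.

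**Figure D3:**
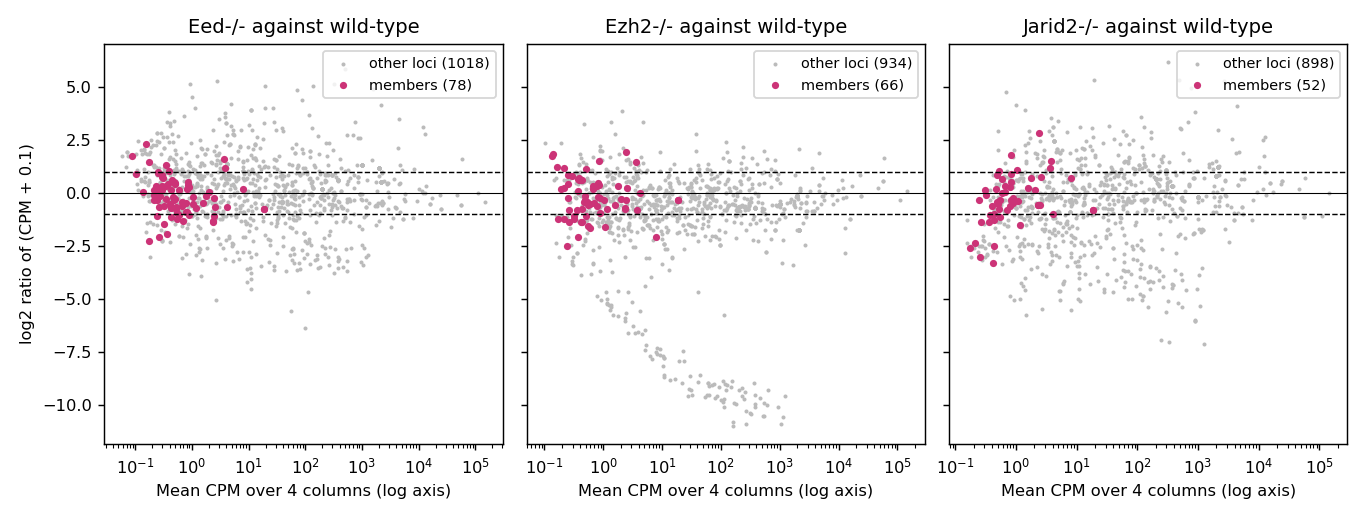
Log2 ratio of (CPM + 0.1) of each mutant against wild-type (y axis) over the mean CPM of the 4 columns (x axis, log), for members (coloured) and other loci (grey) whose higher count of the pair was 10 or more; dashed lines mark 2-fold. The members lie at the low end of the level axis, and most of the 78, 66 and 52 in the panels lie between the lines.

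Of the 52 members with a ratio in every mutant, 3 were called lower in all 3 (5.77%), against 138 of all 944 such loci (14.6%). All 3 ratios of a member share the wild-type column, so a low or high wild-type count moves all 3 together. The 3 members, named here after their values were seen, were miR-6912-5p, miR-6913-3p and miR-7063-5p.

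All 3 had few counts. miR-6912-5p, in Scamp4, had 20 counts in wild-type and 6 in Eed-/-, with 4 in Ezh2-/- and 3 in Jarid2-/-. The ratio was 5.92-fold lower in Eed-/- (2.29 to 18.0) and 6.74-fold lower in Ezh2-/- (2.26 to 27.1), and its interval in Jarid2-/- held 1 (2.38-fold lower, 0.705 to 12.5). miR-6913-3p, in Dohh, had 17, 4, 7 and 0 counts, and miR-7063-5p, in the clathrin adaptor gene Ap2a2, had 12, 1, 5 and 0. The wild-type column was the highest for each of them and the only one with 10 or more counts. They had ratios only through the column where they were high, so their lower calls follow in part from that minimum. Over all members, the highest column was Jarid2-/- for 48, wild-type for 43, Eed-/- for 29 and Ezh2-/- for 22. The lowest column was Jarid2-/- for 49, Ezh2-/- for 40, Eed-/- for 29 and wild-type for 24. In the shallow Jarid2-/- column 1 count is a larger step in CPM, so it can be highest or lowest through few counts. Ties, as at 0, went to the first column in the order wild-type, Eed-/-, Ezh2-/- and Jarid2-/-. These tallies do not order the genotypes.

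The arms of a hairpin are its 2 strands, of which one is usually kept in Argonaute. Of the range's 201 3p loci, 97 (48.3%) were members, and of its 201 5p loci, 45 (22.4%). Among 116 hairpin loci with at least 10 counts over both arms, the 3p arm had more in 81, the 5p arm in 34, and 1 was equal. The 34 hairpin loci with both arms among the members were split evenly, 17 with more 3p and 17 with more 5p. The counts that chose the members also set these numbers, so they describe the block and test nothing.

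The share of member counts from 5p arms was 17.1% in wild-type (15.8 to 18.5%) and 19.3% in Eed-/- (18.1 to 20.6%), with 16.8% in Ezh2-/- (15.5 to 18.1%) and 18.0% in Jarid2-/- (15.6 to 20.5%). The intervals of Eed-/- and Ezh2-/- came close without overlapping, and those of the other pairs overlapped. Without miR-6967-3p the shares were 27.8%, 27.6%, 27.3% and 23.6%, so the level of this share rested on that member.

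Single hairpins ranged from nearly all 3p to nearly all 5p. miR-6967 had 1989 counts of 3p and 228 of 5p at the Kifc5b copy. miR-7054 had 268 of 3p and 15 of 5p, miR-6943 had 232 and 11, miR-7070 had 173 and 17, and miR-7069 had 172 and 17. At the other end miR-6992 had 6 of 3p and 416 of 5p. miR-6994 had 46 of 3p and 98 of 5p, and miR-6927 had 29 and 90. In wild-type alone the 3p and 5p counts of miR-7054 were 71 and 2, and those of miR-6994 were 12 and 24.

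**Figure D4:**
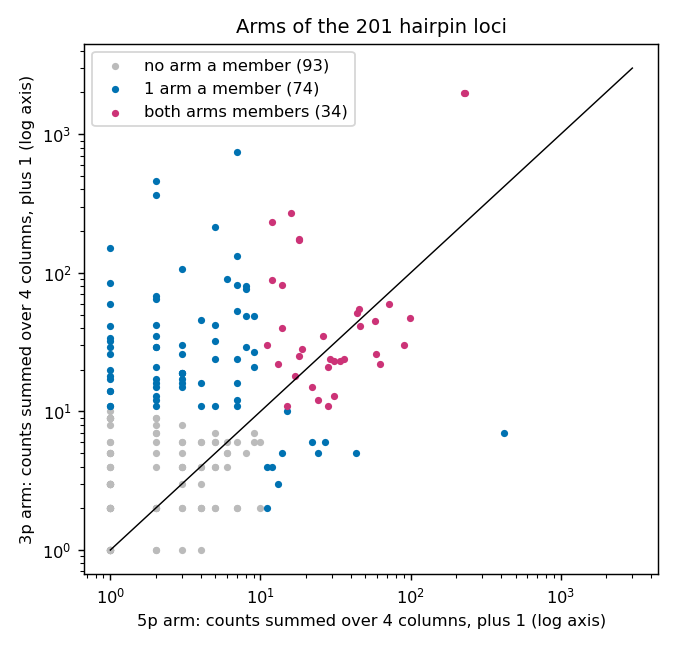
Counts summed over the 4 columns, plus 1, of the 5p arm (x axis) and the 3p arm (y axis) of the 201 hairpin loci in the number range, both axes log; colours show whether neither, 1 or both arms are members, and the line marks equal counts. More points lie above the line than below it, and the 34 loci with both arms as members fall on both sides.

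Seeds were nearly all different. The members had 136 distinct seeds, and 3 were shared by at least 2 member names: CACCCUG by miR-7018-3p, miR-7023-3p and miR-7068-3p, CUGAGCU by miR-6927-3p and miR-6945-3p, and UGAGGGG by miR-6927-5p and miR-7070-5p. The levels of the first group were not alike. miR-7018-3p had 2, 17, 3 and 1 counts in wild-type, Eed-/-, Ezh2-/- and Jarid2-/-, miR-7023-3p had 1, 4, 7 and 2, and miR-7068-3p had 17, 24, 9 and 4. Of the member seeds, 16 also occur in a mature microRNA outside the number range, and 2 of these in an abundant one with over 10000 counts: that of miR-6920-3p in miR-18b-3p and that of miR-7069-3p in miR-18a-3p.

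Earlier-numbered mirtrons gave a point of reference. Of miR-702, miR-877 and miR-1224 (6 loci), the sum was 147.9 CPM in wild-type and 164.1 in Eed-/-, with 101.4 in Ezh2-/- and 193.1 in Jarid2-/-. These 6 loci held more than the 142 members did in every column but Ezh2-/-. In Ezh2-/- the members' 104.4 CPM may hold the miR-6967 reads double, and the 138 members without miR-6967 summed to 60.0 CPM. miR-702-3p, the highest of the 6 in wild-type, Eed-/- and Jarid2-/-, had 69.9, 77.5, 32.1 and 82.3 CPM, while miR-877-3p was the highest in Ezh2-/- (42.3 CPM). In Ezh2-/- miR-702-3p was 2.18-fold lower in Ezh2-/- (2.02 to 2.36), a call that each other scaling lost (log2 -0.68 to -0.40). miR-484 and miR-320 bypass Drosha without being mirtrons. miR-484 was above all 6 in every column, with 2319 CPM in wild-type and 1646 in Eed-/-, with 1889 in Ezh2-/- and 2397 in Jarid2-/-. miR-320-3p had 544, 579, 517 and 44.2 CPM, with Jarid2-/- the low column under each scaling tried and there below miR-702-3p.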

How the data were processed

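Small RNA of mouse ES cells was counted by the authors. Per the file headers, the deposited tables hold a read count for every mature locus of miRBase release 20, and the same value as RPM. The RPM columns deposited by the authors divide by totals of 62259756 to 267248746, of which microRNA counts are 9.66 to 15.8%. Cutadapt, Bowtie and mm9 are named in the submitters' processing notes. How reads with several matches were handled is not given in the sources used here, nor are versions. Each column was matched to a genotype by its name, and the wild-type column carries the name of the parental line.

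CPM was computed from the deposited counts over all loci of a column. Folds have exact conditional binomial intervals and shares Clopper-Pearson intervals (95%). Where 1 column had no count, 3 counts stood in for it as a floor, and the fold so formed leaves out counting error. Edge sequences, seeds and pyrimidine shares were read from the deposited sequences. Hairpins and host genes came from RefSeq (GRCm38.p6) by name. All 352 loci of the range that matched had the same mature sequence there, and 50 did not match. Scaling alternatives used edgeR 4.0.16 (TMM) and DESeq2 1.42.0 (size factors). No count test was run, because each genotype has 1 column. The code for ratios and calls was run on simulated Poisson counts. Changes were placed only at loci with at least 100 counts expected in the mutant column. Only 16 members had 100 or more counts summed over all columns, so changes at the counts of most members were not covered.

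The named members were the 12 loci with the highest mean CPM, the 5 highest and 5 lowest ratios per mutant among members whose higher count of the pair was 30 or more, and the 6 hairpins with both arms as members and most counts. The members and lists were chosen with earlier results of these data known. One member is not reported by sequence. Chromatin and messenger RNA data were not analysed here.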

Additional observations from a re-analysis of the deposited data

How the results depend on the processing

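The direction of the summed level depended on the scaling and on miR-6967. As ratios to wild-type, TMM factors gave 0.701 in Eed-/- and 1.33 in Ezh2-/-, and median-ratio size factors gave 0.656 in Eed-/-, 1.15 in Ezh2-/- and 0.851 for Jarid2-/-. The authors' RPM denominators gave 1.25, 1.10 and 1.31 for Eed-/-, Ezh2-/- and Jarid2-/-. Leaving out both miR-6967 arms, the members with several loci, gave 0.918 in Eed-/- and 1.19 in Jarid2-/-, and leaving out miR-6967-3p alone gave 0.870 and 1.15.

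The median log2 ratio of the members changed sign with TMM factors in Ezh2-/- (0.38), with median-ratio size factors in Ezh2-/- (0.19), and with RPM denominators in Eed-/- (0.39), Ezh2-/- (0.12) and Jarid2-/- (0.088). It moved to -0.40 in Eed-/- and -0.47 in Jarid2-/- with median-ratio size factors. With a pseudocount of 1 CPM it was -0.095, -0.16 and -0.17 in the 3 mutants, and in Jarid2-/- it was -0.23 at a minimum of 1 count, -0.13 at 30 counts and -0.023 with arms and copies summed per hairpin. In these 4 settings the Jarid2-/- median lay above that of all loci, by 0.0033, 0.068, 0.065 and 0.23.

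Counts of called members, higher then lower, were 19 and 4 with TMM factors and 15 and 6 with median-ratio size factors in Ezh2-/-, and 5 were higher with the latter in Eed-/-. RPM denominators gave 17 and 3 in Eed-/-, 6 lower in Ezh2-/-, and 12 and 6 in Jarid2-/-. A pseudocount of 1 CPM gave 1 and 0 in Eed-/-, 2 and 1 in Ezh2-/-, and 2 and 0 when Jarid2-/- was compared. The shares over all loci for these scalings and this pseudocount are given above. A minimum of 30 for the higher count of the pair gave 2 and 2 of 20 members in Eed-/- (10% and 10%), against 26.4% and 21.0% of all loci. In Ezh2-/- it gave 4 and 2 of 20 (20% and 10%), against 8.63% and 35.0%. In Jarid2-/- it gave 3 and 2 of 16 (18.75% and 12.5%), against 19.4% and 30.6%. A minimum of 1 count gave 14 and 32 of 141 members in Ezh2-/- (9.93% and 22.7%), against 7.30% and 26.3% of all loci. In Jarid2-/- it gave 20 and 33 of 140 (14.3% and 23.6%), against 19.4% and 25.5%. Members with summed counts of 30 or more gave 4 higher of 58 in Eed-/- (6.90%), against 25.6% of all loci. In Ezh2-/- they gave 4 and 8 of 50 (8% and 16%), against 8.7% and 34.5%. Arms and copies summed per hairpin gave 3 and 7 of 76 in Eed-/- (3.95% and 9.21%), against 21.1% and 19.7% of all hairpin names. In Jarid2-/- they gave 7 lower of 52 (13.5%), against 31.3%. The demand for an interval without 1, added after the data were seen, left 4 lower in Jarid2-/-.

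The 5p share was 27.8, 27.6, 27.3 and 23.6% without miR-6967-3p in wild-type, Eed-/-, Ezh2-/- and Jarid2-/-, and 15.1, 17.3, 15.0 and 14.8% over members with summed counts of 30 or more. With at least 3 counts in place of 1, Jarid2-/- had 67 members. The other 50 values stayed within 1.5 times, or within their interval or 0.1 of a median. Of 207 rescaled ratios of named members and of miR-702-3p, miR-484 and miR-320-3p, 191 kept their call or lack of one, 9 lost a call, 7 gained one and none that was called changed sign. Apart from settings where the construction removes loci or counts, the cause was not tested. Depth limits most members, since a median of 26 counts over 4 columns leaves wide intervals. No paired analysis was possible because each genotype has 1 column.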
